A study of Mus musculus with 6 samples.

Results

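The mitochondrial ribosomal protein genes were taken as the protein-coding genes whose symbol begins with Mrpl or Mrps followed by a digit. There were 77 of them among the 41388 genes of the expression table, 48 named for the large subunit (Mrpl) and 29 for the small subunit (Mrps). They were measured by RNA-seq in primary hepatocytes of C57BL/6J mice, plated after collagenase digestion and infected with adenovirus 24 h before RNA collection. Hepatocytes expressing β-gal, the control protein beta galactosidase, gave 3 libraries (replicates 1, 2 and 3). Hepatocytes overexpressing Aloxe3, a lipoxygenase of the epidermal type, gave another 3 (replicates 7, 8 and 9). All 6 libraries came from infected cells, so no uninfected level is known. The labels do not say whether libraries of a group came from separate mice or cultures, and p-values therefore measure the spread between these libraries, which may be technical.

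Mitochondria carry their own ribosome, which translates the few mRNAs of the mitochondrial genome into core subunits of the respiratory chain and the ATP synthase. Its ribosomal RNAs are transcribed in the organelle, whereas all of its proteins are encoded in the nucleus, made in the cytosol and imported. Some of these proteins descend from those of the bacterial ribosome and others were added during the evolution of mitochondria. The liver is rich in mitochondria, which serve fatty acid oxidation, the urea cycle and gluconeogenesis.

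Library sizes ran from 25521908 to 32431318 reads. Expression is given as RPKM, the reads of a gene divided by its exon length in kilobases and scaled to the library size. Aloxe3 itself averaged 1.95 ± 0.18 RPKM (SD, n = 3) in the control libraries and 48.1 ± 7.3 RPKM (SD, n = 3) under overexpression. Its log2 fold change was 4.05 (limma adjusted p = 4.74e-06), and the exact permutation test gave p = 0.1, the smallest two-sided value that 3 against 3 libraries allow. All 8 hepatocyte markers were found, and their summed level was 4947 to 4995 RPKM with β-gal and 4775 to 4921 RPKM with Aloxe3. Of these, 1 of the 7 tested (Ttr) passed the adjusted test, which 0.394% of all tested genes did. The 7 Kupffer cell and macrophage markers summed to 151 to 154 RPKM with β-gal and 133 to 146 RPKM with Aloxe3, none of the 5 tested passing the adjusted test. In these lists the groups did not overlap. The 6 endothelial markers (24.6 to 28.7 against 24.5 to 28.6 RPKM) and the 6 stellate cell and fibroblast markers (3.45 to 3.97 against 3.58 to 3.90 RPKM, Lrat at 0) overlapped between the groups, as did the 5 cholangiocyte markers (1509 to 1593 against 1577 to 1716 RPKM). The part of these markers in the results was not tested, and fewer cells of a type cannot be told apart from less RNA per cell.

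Promoter sequence, which the name rule did not use, was examined next. A RefSeq promoter (GRCm38.p6), running from 250 bases before to 50 bases after the transcription start, was found for 68 of the 77 genes. Each was searched on both strands for the NRF1 motif GCGCATGC, the ETS and GABP motif CCGGAAG and the YY1 motif AAGATGG. NRF1, GABP and YY1 are transcription factors known for their sites at nuclear genes of mitochondrial proteins. The ETS motif occurred in 25 of the 68 genes (36.8%), against 12.9% of 17491 protein-coding genes and 9.93% of all 27025 genes with a promoter. The YY1 motif occurred in 13 (19.1%, against 7.18% and 7.28%) and the NRF1 motif in 7 (10.3%, against 3.93% and 3.05%). By subunit, the ETS motif was found in 14 of 42 Mrpl genes and 11 of 26 Mrps genes, and the NRF1 motif in 6 Mrpl genes and 1 Mrps gene. The windows had a median observed to expected CpG ratio of 0.82, against 0.567 over protein-coding genes, at a median GC content of 58.8% against 56.3%. The background promoters were not matched to the members for expression or CpG content. Whether the shares are particular to these genes was not tested. These matches are descriptions of the sequence, and binding was not measured.

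The 250 bases before the start are shown for Mrpl17, whose log2 fold change was the lowest of the tested members, and for Mrpl52, the most abundant member. The window of Mrpl17 is at chr7:105811088-105811337 on the reverse strand and that of Mrpl52 at chr14:54426659-54426908 on the forward strand (GRCm38.p6). Capitals mark the ETS and then the NRF1 motif in Mrpl17, and the YY1 motif followed by the ETS motif, which lies on the opposite strand, in Mrpl52.
Mrpl17: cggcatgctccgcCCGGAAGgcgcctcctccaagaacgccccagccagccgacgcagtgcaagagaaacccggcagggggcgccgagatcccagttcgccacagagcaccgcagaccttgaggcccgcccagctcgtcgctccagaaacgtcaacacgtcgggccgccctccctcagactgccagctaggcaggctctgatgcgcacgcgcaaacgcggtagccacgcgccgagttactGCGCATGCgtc
Mrpl52: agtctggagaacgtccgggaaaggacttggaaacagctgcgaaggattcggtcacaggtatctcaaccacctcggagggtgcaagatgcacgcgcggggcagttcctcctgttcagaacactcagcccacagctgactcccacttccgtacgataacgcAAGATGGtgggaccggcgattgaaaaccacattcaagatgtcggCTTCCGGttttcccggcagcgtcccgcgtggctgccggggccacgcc
The first base of the NRF1 motif of Mrpl17 lay 11 bases before the RefSeq start, which is inside the GENCODE M21 gene, and that of its ETS motif 237 bases before. In Mrpl52 the marked bases began 91 bases (YY1) and 47 bases (ETS) before the start.

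Many of the genes lay back to back with a neighbor. For 22 of the 77 (28.6%) the start of the principal transcript was within 1000 bases of that of a protein-coding gene on the other strand, pointing away from it, against 11.3% of 11270 tested protein-coding genes. Mrpl46 (large subunit) and Mrps11 (small subunit) formed such a pair, with the starts of their principal transcripts 30 bases apart. The partners of the other members with such a neighbor were not members. As examples chosen after the pairs were seen, the principal transcript of Mrps12 started 232 bases from that of Sars2, the mitochondrial seryl-tRNA synthetase. The principal transcript of Mrpl43 started 116 bases from that of Twnk, the helicase that unwinds mitochondrial DNA, although the annotated genes overlap. The 77 genes were spread over 17 chromosomes, with 11 on chromosome 11 and 8 on chromosome 17.

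The mitochondrial ribosomal protein genes all had reads in every library. Their median level was 15.8 RPKM over the 77 genes, 17.1 RPKM for Mrpl and 10.96 RPKM for Mrps, and 65 genes lay between 5 and 50 RPKM. The cytosolic ribosomal protein genes, which build the ribosome of the cytosol, had a median of 21.4 RPKM (72 genes) and ran from 0.755 to 1449 RPKM. Sequence that they share with other genes was not examined, so their median is not a measured ratio to that of the mitochondrial genes. Mrpl52, a protein of the mitochondrial large subunit, stood apart at 157, 166 and 161 RPKM with β-gal and 160, 169 and 186 RPKM with Aloxe3. It was the only member over 50 RPKM, and its groups overlapped. Next were Mrpl2, a counterpart of a core bacterial protein, at a mean of 49.3 RPKM over the 6 libraries and Mrpl12, a counterpart of the bacterial stalk protein that binds translation factors, at 47.7 RPKM. These neighbors did not differ beyond their spread, since Mrpl2 ranged from 42.7 to 52.9 RPKM and Mrpl12 from 45.5 to 53.5 RPKM over the libraries. Among the Mrps genes the highest were Mrps24 (42.6 RPKM), Mrps21 (32.7 RPKM) and Mrps15 (31.9 RPKM), of which the latter pair overlapped in range.

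**Figure D1:**
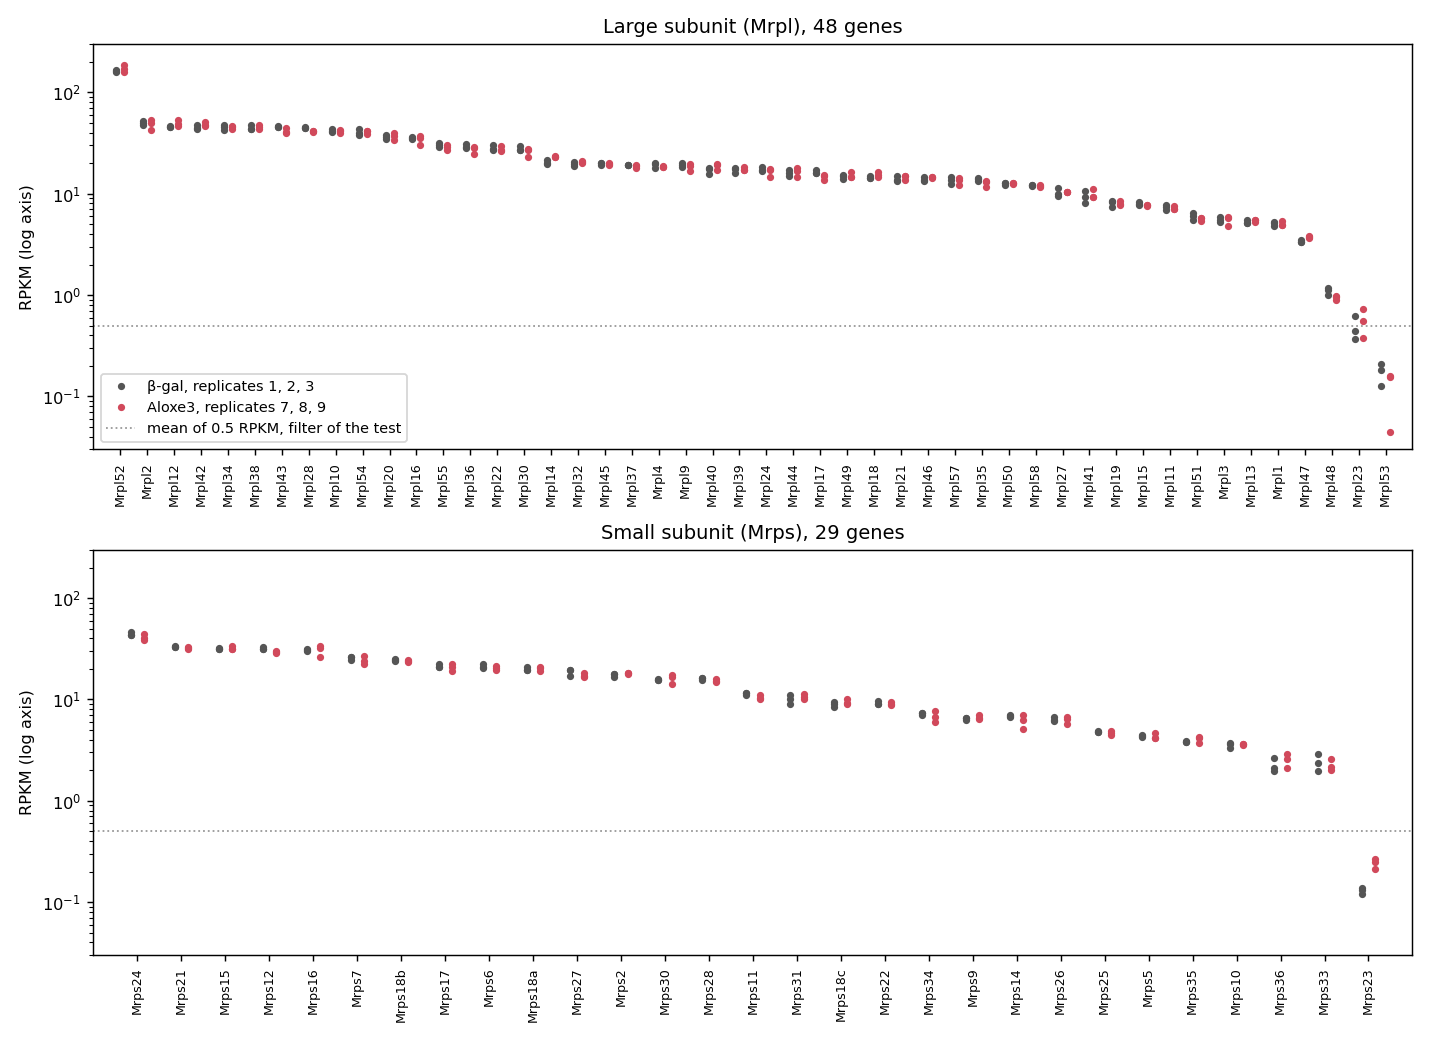
Level in RPKM (log axis) of the 48 Mrpl genes (top) and 29 Mrps genes (bottom), sorted by mean, with 1 point for each of the 3 β-gal (gray) and 3 Aloxe3 (red) libraries. Mrpl52 stands above the rest at 157 to 186 RPKM, and Mrpl53 and Mrps23 lie under the mean of 0.5 RPKM (dotted line) needed for the test.

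At the low end were Mrpl53 (mean 0.147 RPKM), Mrps23 (0.186 RPKM), Mrpl23 (0.514 RPKM), Mrpl48 (1.02 RPKM), Mrps33 (2.33 RPKM) and Mrps36 (2.38 RPKM), followed by Mrpl47 (3.55 RPKM) and Mrps10 (3.57 RPKM). Only uniquely aligned, unambiguous reads were counted, and several of these genes share sequence with other annotated genes. Of the 50-base words (the length of a read) of its principal transcript, Mrpl53 shared 100% with Gm42688, a gene annotated at the same place. Gm42688 and Ccdc142os overlap 88.0% of the exon bases of Mrpl53. Mrpl23 shared 76.4% of its words, with its pseudogene Mrpl23-ps1. For Mrps36 the share was 36.2% and for Mrps33 20.98%, while it was 6.3% for Mrpl48 and 0% for Mrps23. The levels of Mrpl53 and Mrpl23, most of whose words also occur in another annotated gene, are uncertain. The part of shared or overlapping sequence in the low levels was not tested.

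Mrps23 and Mrpl53 failed the filter on low values and were not tested. Mrps23 was listed at 0.119, 0.138 and 0.130 RPKM with β-gal and at 0.251, 0.211 and 0.267 RPKM with Aloxe3. The Aloxe3 libraries were all higher, on 6 to 11 derived reads per library. Mrpl53 was listed at 0.211, 0.126 and 0.184 RPKM with β-gal and at 0.160, 0.0448 and 0.154 RPKM with Aloxe3, on 1 to 5 derived reads, and its groups overlapped. In a fit without the filter the smallest adjusted p of any member was that of Mrps23, 0.299 (limma).

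Comparison of levels between genes depended on the gene length used. The exon length behind the deposited values, derived from their whole-read steps, ran from 412 bases for Mrpl52 to 8079 bases for Mrps10. For 12 genes it was over 2 times that of the principal transcript. Counted per kilobase of the principal transcript instead, Mrps10, a protein of the small subunit head, came to 28.3 in place of 3.57, and Mrpl13 to 34.5 in place of 5.32. In the other direction, Mrps16 went from 30.7 to 6.75 and Mrpl32 from 20.03 to 5.11. Mrpl52 remained highest at 164, but the order under it did not hold. On the principal length 13 members exceeded 50, with Mrps21 (85.9) and Mrps18a (83.8) above Mrps24 (62.7), Mrpl2 (55.9) and Mrpl12 (55.5). For 35 of the 77 genes, Mrpl52, Mrps21, Mrps16 and Mrpl32 among them, the deposited length was not that of GENCODE M21 and was taken as the smallest that gave whole reads. Their lengths and reads, and so their levels on the principal length, are known up to a whole factor. The falls of Mrps16 and Mrpl32 and the top rank of Mrpl52 on the principal length therefore hold only for the smallest length. The SD of the log2 level over the 77 genes was 1.71 with the deposited length and 1.76 with the principal length, a choice of length made after the data were seen.

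**Figure D2:**
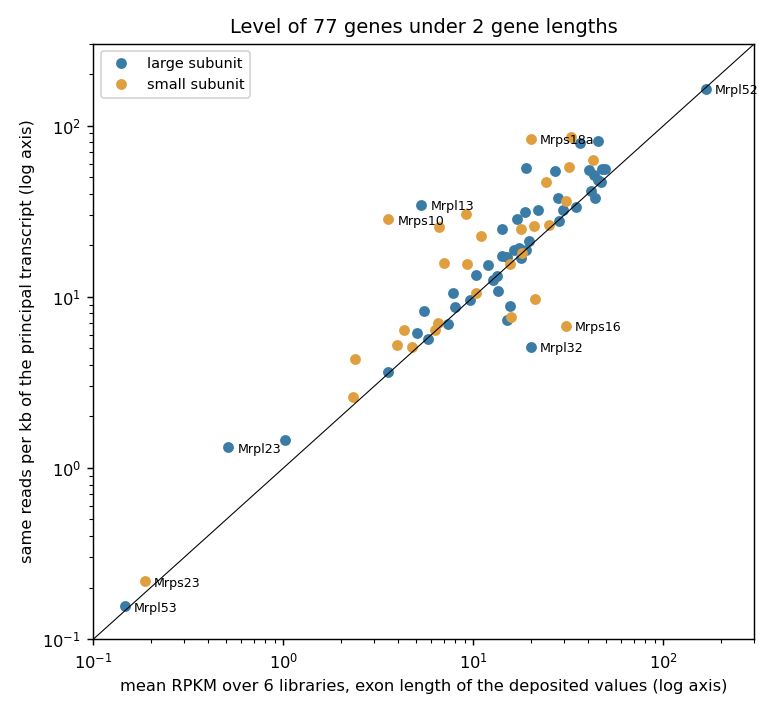
Mean level of each of the 77 genes over 6 libraries in RPKM as deposited (x, log axis) against the same reads per kilobase of the principal transcript (y, log axis), with Mrpl genes in blue, Mrps genes in orange and the line of equality. Mrps10 and Mrpl13 lie far above the line and Mrps16 and Mrpl32 far below it, the latter pair on derived lengths known only up to a whole factor.

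Some names do not match the place of the protein. Mrps30 and Mrps18a are now known to sit in the large subunit, and Mrps36 is now known as a component of the 2-oxoglutarate dehydrogenase complex. Mrps30 was at 15.96, 15.5 and 15.4 RPKM with β-gal and 14.1, 17.4 and 16.4 RPKM with Aloxe3. The Mrps18 paralogs, counterparts of a single bacterial protein, averaged 20.1 RPKM (Mrps18a), 24.1 RPKM (Mrps18b) and 9.21 RPKM (Mrps18c). Per kilobase of the principal transcript they came to 83.8, 46.8 and 15.5, so the order of Mrps18a and Mrps18b depended on the length. None of the 5 genes, Mrps36 included, had groups that did not overlap. In all, 63.7% of the words of Mrps18b were shared, chiefly with the overlapping gene Gm16279.

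Overexpression of Aloxe3 for 24 h was then compared with β-gal, gene by gene. None of the 75 tested mitochondrial ribosomal protein genes passed the test (limma, Benjamini-Hochberg adjusted p under 0.05 over 12693 genes), where 50 genes or 0.394% of all tested genes did, 45 higher and 5 lower. That background was itself unstable, at 6 to 19 genes with any 1 library left out and 7 without the filter on low values. The smallest adjusted p of a member was 0.209, for Mrpl14. At an unadjusted p under 0.05 there were 7 members of 75, or 9.33%, against 12.7% of all tested genes, with 5 lower (6.67%, against 5.42% of all tested genes lower at that p) and 2 higher (2.67%, against 7.31%). The split moved with single libraries, with 2 lower of 4 without β-gal replicate 2, 3 of 5 without β-gal replicate 3, 8 of 11 without Aloxe3 replicate 8 and 3 of 7 without Aloxe3 replicate 9. The groups did not overlap for 10 of 75 members (8 lower and 2 higher), a share of 13.3% against 19.9% of all tested genes. The 8 lower members were 10.7% of those tested, against 8.71% of all tested genes, and the 2 higher ones 2.67%, against 11.2%. The voom fit on derived reads called 0 members as well, while it called 174 genes in all.

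The fold changes were small in either direction. They ranged from -0.16 for Mrpl17 to 0.17 for Mrpl14 on the log2(RPKM + 1) scale. The median was -0.016 over the 75 members, with 42 under 0 and 33 over 0, and 0.0049 over all tested genes, of which 47.6% were under 0. The 95% interval of the fold change lay within 1.25-fold in both directions for 72 of 75 members, and for 10839 of the 12693 tested genes. The 3 exceptions were Mrps14 (-0.37 to 0.06), Mrps33 (-0.32 to 0.18) and Mrps36 (-0.12 to 0.36). For low genes such as Mrpl23 this scale understates a change, so a narrow interval says less there.

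**Figure D3:**
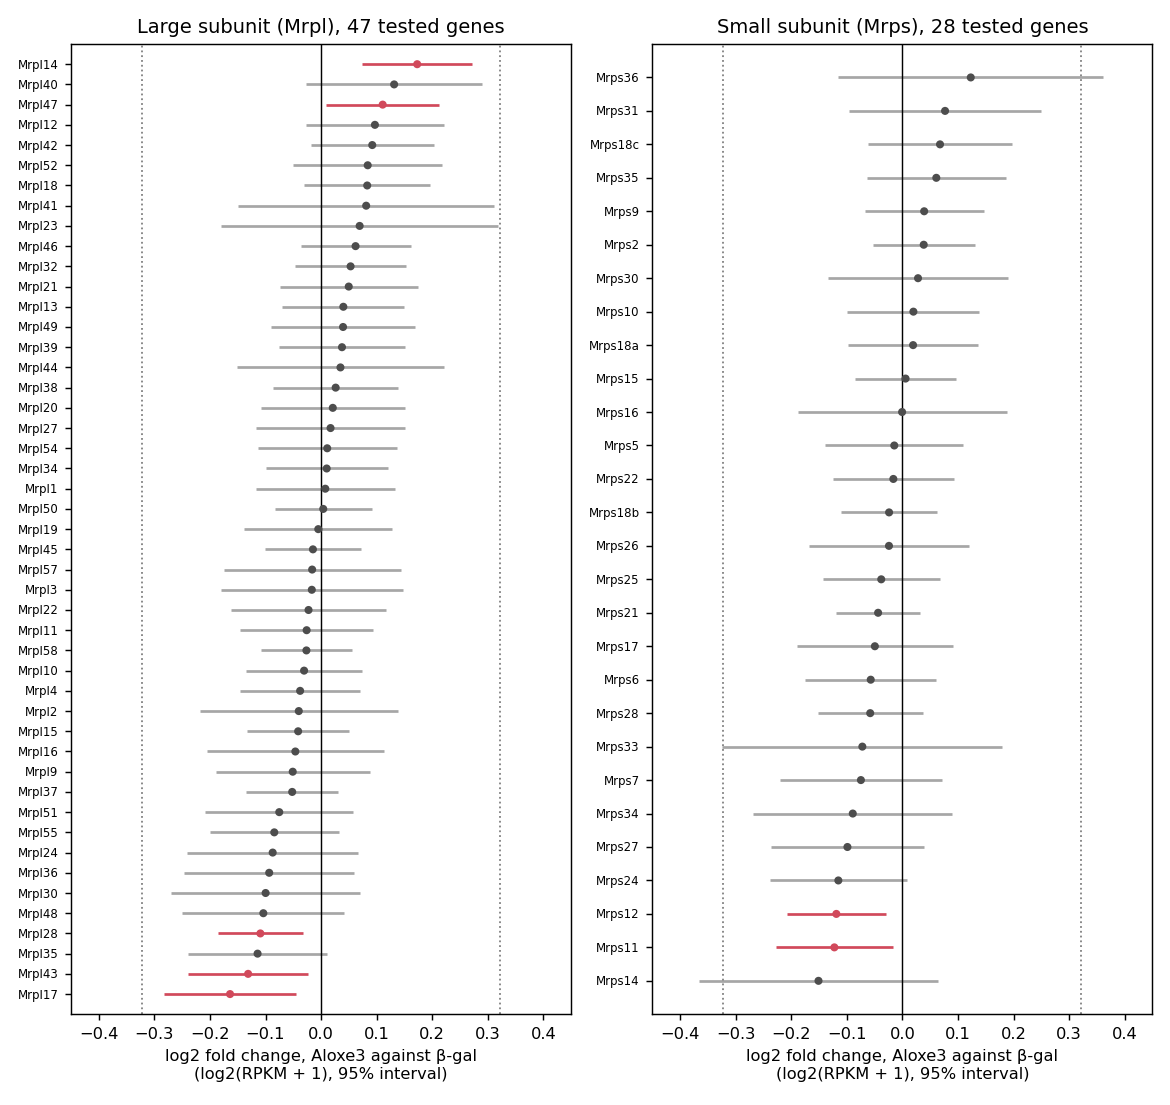
Log2 fold change (x, log2(RPKM + 1) scale) of Aloxe3 against β-gal for the 47 tested Mrpl genes (left) and 28 tested Mrps genes (right), with 95% intervals; red marks an unadjusted p under 0.05 and dotted lines mark 1.25-fold. In 72 of 75 genes the interval lies between the dotted lines, and no gene passes the adjusted test.

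In the large subunit, Mrpl14 had the smallest p. Mrpl14 (chr17:45686322-45698495, forward strand) is the counterpart of a bacterial protein at the interface between the subunits. It was at 20.1, 21.6 and 19.8 RPKM with β-gal and at 22.9, 23.7 and 23.0 RPKM with Aloxe3. All Aloxe3 libraries were above all β-gal libraries, with a log2 fold change of 0.17 ± 0.04 (SE; limma adjusted p = 0.209). Of its exon bases, 11.2% overlap Tmem63b on the other strand, which averaged 62.3 RPKM with β-gal and 58.8 RPKM in the Aloxe3 libraries. Mrpl47, the counterpart of a bacterial protein at the exit of the peptide tunnel, also had higher values, 3.34, 3.49 and 3.30 RPKM against 3.79, 3.68 and 3.71 RPKM. Its adjusted p was 0.356 (limma), and 24.2% of its exon bases overlap Actl6a or Ndufb5.

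3 other large subunit genes with a small p had lower values with Aloxe3. Mrpl28 (chr17:26123500-26126613), the counterpart of a bacterial large subunit protein, was at 44.3, 44.3 and 45.7 RPKM with β-gal and at 42.0, 41.6 and 40.8 RPKM with Aloxe3. Mrpl17 (chr7:105803206-105811099), whose bacterial counterpart lies near the tunnel exit and whose promoter is shown above, was at 16.01, 17.1 and 16.2 RPKM with β-gal and at 15.2, 14.9 and 13.6 RPKM with Aloxe3. In both genes the groups did not overlap, with log2 fold changes of -0.11 ± 0.03 and -0.16 ± 0.05 (SE; limma adjusted p = 0.273 and 0.286). Mrpl43 (chr19:45004829-45006442), which has no bacterial counterpart, was at 45.2, 46.4 and 45.5 RPKM with β-gal and at 41.1, 44.4 and 39.6 RPKM with Aloxe3. Its groups were again separate (log2 fold change -0.13 ± 0.05, SE; limma adjusted p = 0.321), but 33.4% of its exon bases overlap Twnk on the other strand, and the library protocol describes no step that marks strand.

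In the small subunit, the smallest p-values belonged to Mrps12 and Mrps11, both counterparts of bacterial proteins. Mrps12 (chr7:28739641-28741820), a protein of the decoding center, was at 31.4, 33.2 and 31.4 RPKM with β-gal and at 29.3, 30.1 and 28.7 RPKM with Aloxe3. Mrps11 (chr7:78783119-78792989), a protein of the platform, was at 11.6, 11.1 and 11.7 RPKM with β-gal and at 11.04, 10.1 and 10.2 RPKM with Aloxe3. Both had log2 fold changes of -0.12 and separate groups (limma adjusted p = 0.291 and 0.334). Mrpl46, the back-to-back neighbor of Mrps11, had a log2 fold change of 0.06 ± 0.04 (SE; limma adjusted p = 0.577). Both genes overlap each other, in 7.97% of the exon bases of Mrps11 and 12.2% of those of Mrpl46. The interval of Mrpl46 (-0.04 to 0.16) and that of Mrps11 (-0.23 to -0.02) overlapped, and their difference was not tested.

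The next 3 small subunit genes overlapped between groups. Mrps24, at 46.2, 43.6 and 43.1 against 40.3, 43.8 and 38.5 RPKM, had a log2 fold change of -0.12 (limma adjusted p = 0.421), which was -0.075 without Aloxe3 replicate 9. Mrps27, a protein found only in mitochondria, was at 19.3, 19.4 and 17.2 against 18.4, 17.04 and 16.5 RPKM (log2 fold change -0.099, and -0.15 without β-gal replicate 3; limma adjusted p = 0.531). Mrps14 was at 6.78, 7.09 and 6.67 RPKM with β-gal and at 7.04, 6.19 and 5.11 RPKM with Aloxe3 (limma adjusted p = 0.535). The low value of Mrps14 was in Aloxe3 replicate 9, and its log2 fold change was -0.15 with that library and -0.046 without it, and -0.24 without Aloxe3 replicate 7.

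The large and small subunits were next compared. The Mrpl genes had a median log2 fold change of -0.0051 (24 of 47 under 0) and the Mrps genes one of -0.024 (18 of 28 under 0). Both moved with single libraries. Without Aloxe3 replicate 9 they were 0.0075 and 6.42e-05, and the Mrpl median was also above 0 without β-gal replicate 2 (0.020) or Aloxe3 replicate 7 (0.0037). In the other direction, they were -0.025 and -0.0455 without Aloxe3 replicate 8, and the Mrpl median was -0.028 without β-gal replicate 1. Within a library, the mean log2(RPKM + 1) of Mrpl genes exceeded that of Mrps genes by 0.457, 0.482 and 0.463 with β-gal and by 0.472, 0.486 and 0.508 with Aloxe3. The groups overlapped, and their means, 0.467 ± 0.013 and 0.489 ± 0.018 (SD, n = 3), differed by 0.021, or by 0.012 without Aloxe3 replicate 9. Genes with a bacterial counterpart (46 tested) had a median of -0.023, and those found only in mitochondria (29 tested) one of 0.0039. An unadjusted p under 0.05 occurred in 6 of the former (13.04%) and 1 of the latter (3.45%), against 12.7% of all tested genes, and the difference between them was not tested.

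Taken as a share of the library, the 77 genes drew 0.262%, 0.272% and 0.262% of reads with β-gal and 0.263%, 0.267% and 0.255% with Aloxe3. The groups overlapped (0.265 ± 0.006% and 0.262 ± 0.006%, SD, n = 3). Relative to the β-gal mean, the median member stood at -0.024, 0.039 and -0.018 in the β-gal libraries and at -0.014, 0.013 and -0.053 in the Aloxe3 libraries, on the log2 scale. The spread within a group was larger than the distance between groups. Aloxe3 replicate 9 was the lowest library for 34 of 75 members (45.3%), against 30.0% of all tested genes. β-gal replicate 2 was the highest for 26 members (34.7%), against 14.5% of all tested genes.

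**Figure D4:**
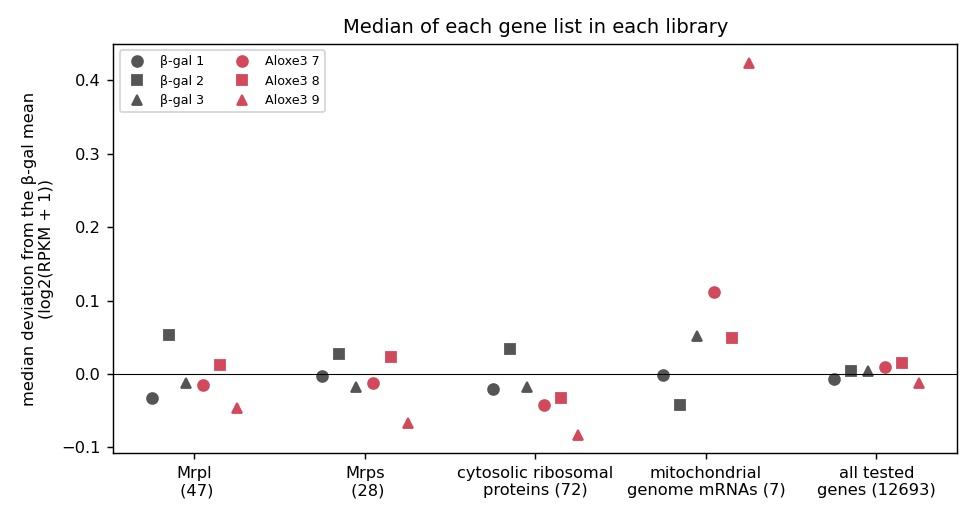
Median deviation from the β-gal mean (y, log2(RPKM + 1)) in each of the 6 libraries for 5 gene lists, with the number of tested genes in brackets. For Mrpl and Mrps genes the Aloxe3 libraries (red) lie among the β-gal libraries (gray) or, for replicate 9, under them, while mitochondrial genome mRNAs stand at 0.42 in replicate 9.

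The same library stood apart in mitochondrial transcripts. The derived library sizes held almost only reads counted on genes (32242914 of 32265997 in β-gal replicate 1). Of these library sizes, 2.83%, 2.76% and 2.86% were reads on mitochondrial genome genes with β-gal and 2.98%, 2.95% and 3.70% with Aloxe3. The last value was that of replicate 9. Reads that were not counted are in neither number, so the mitochondrial share of the RNA itself is not known. Of the 13 mRNAs of the mitochondrial genome, the products that these ribosomes translate, 6 were listed at 0 in all libraries. The other 7 had a median log2 fold change of 0.19, all above 0, with library medians of 0.11, 0.049 and 0.42 in Aloxe3 replicates 7, 8 and 9. The groups did not overlap for 3 of the 7, all higher (42.9%, against 11.2% of all tested genes), but none passed the adjusted test or had an unadjusted p under 0.05 (smallest limma adjusted p = 0.407). Whether this library's mitochondrial reads had a part in its lower member values was not tested. Without replicate 9 the median log2 fold change of the members was 0.0073, and with all libraries it was -0.016.

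The cytosolic ribosomal protein genes were set beside the mitochondrial ones. Their median log2 fold change was -0.054, with 46 of 72 under 0. An unadjusted p under 0.05 occurred in 11 of the 72 (15.3%, against 12.7% of all tested genes), all lower (against 5.42% lower), and none passed the adjusted test (smallest limma adjusted p = 0.246). Their share of reads was 1.01 ± 0.03% with β-gal and 0.968 ± 0.034% with Aloxe3 (SD, n = 3).

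**Figure D5:**
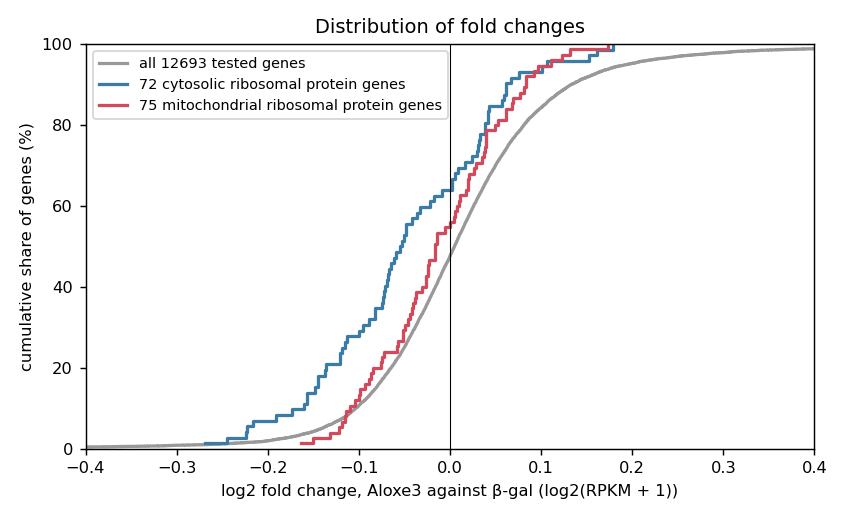
Cumulative share of genes (y, %) against log2 fold change (x, log2(RPKM + 1) scale) for 75 mitochondrial ribosomal protein genes (red), 72 cytosolic ones (blue) and all 12693 tested genes (gray). The medians are -0.016, -0.054 and 0.0049, and the mitochondrial genes span -0.16 to 0.17.

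Genes that build or serve the mitochondrial ribosome were examined beside its proteins, and none passed the adjusted test. Of 5 structural proteins named outside the rule, 4 had a log2 fold change under 0, with the smallest p-values for Chchd1 (38.0 ± 3.2 against 35.9 ± 0.8 RPKM; SD, n = 3) and Aurkaip1 (35.9 ± 1.4 against 34.8 ± 0.5 RPKM), both of the small subunit. Their log2 fold changes, -0.079 and -0.045, were -0.014 and -0.021 without β-gal replicate 2 and -0.12 and -0.075 without β-gal replicate 1. Of 24 assembly factors, 16 were under 0 (66.7%, against 47.6% of all tested genes), with a median of -0.030, and 1 had an unadjusted p under 0.05 (4.17%, against 12.7%). The groups did not overlap for 4 of them, 2 lower and 2 higher (16.7%, against 19.9%). The gene with the unadjusted p under 0.05 was Tfb1m, which methylates the small subunit ribosomal RNA. It was at 2.48, 2.81 and 2.80 RPKM with β-gal and at 3.45, 3.50 and 2.94 RPKM with Aloxe3, with no overlap (log2 fold change 0.22 ± 0.07, SE; limma adjusted p = 0.291). Next was Rcc1l, at 9.34 ± 0.14 against 8.25 ± 1.12 RPKM (SD, n = 3; limma adjusted p = 0.439). Its log2 fold change was -0.17, and -0.079 without Aloxe3 replicate 9 or -0.25 without Aloxe3 replicate 7.

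Of 15 translation factors and mRNA-binding proteins, 8 were under 0 and the median was -0.0017. The groups did not overlap for 3 of the 15, Gfm1 among them (20%, against 19.9% of all tested genes). All 3 were lower, against 8.71% of all tested genes lower. Of the 15, 0 had an unadjusted p under 0.05 (limma), against 12.7% of all tested genes. Gfm1, the mitochondrial elongation factor G, averaged 15.9 ± 0.4 RPKM in the control and 14.9 ± 0.8 RPKM in the Aloxe3 libraries (SD, n = 3; limma adjusted p = 0.446). Mtfmt, which formylates the initiator tRNA, was at 4.34 ± 0.16 and 3.98 ± 0.30 RPKM (SD, n = 3; limma adjusted p = 0.507). Of 17 mitochondrial aminoacyl-tRNA synthetases, 12 were under 0, with a median of -0.010. The smallest p-values were those of Pars2 and Yars2, which charge proline and tyrosine tRNAs, with log2 fold changes of 0.10 and -0.06 (limma adjusted p = 0.553 and 0.62). Single libraries moved these small values, with Pars2 at 0.054 without Aloxe3 replicate 8, Yars2 at -0.023 without β-gal replicate 1, Gfm1 at -0.052 (from -0.092) without Aloxe3 replicate 9 and Mtfmt at -0.059 (from -0.10) without Aloxe3 replicate 7.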

How the data were processed

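Single reads of 50 bases from poly-A selected RNA were aligned by the authors with STAR 2.0.4b to Ensembl release 76 (GRCm38.p2), and uniquely aligned, unambiguous reads were counted per gene with featureCounts 1.4.5. The authors deposited RPKM values. How counts became RPKM is not given in the sources used here. Whole-read steps in the values gave library sizes and reads per gene, with the GENCODE M21 exon length for 16166 genes, where every library came within 0.001 of a whole read, while 8823 genes took the shortest length giving whole reads at that tolerance, widened for high counts. Of the gene identifiers, 40340 matched GENCODE M21 and 1048 did not. Counting error covers only part of the spread, so levels are given with SDs over libraries and fold changes with limma SEs or 95% intervals.

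The 12693 genes whose mean over the 6 libraries reached 0.5 RPKM were compared on the log2(RPKM + 1) scale, 3 libraries against 3, using limma 3.58.1 (R 4.3.3; a linear model with a variance trend in eBayes). P-values were adjusted by Benjamini-Hochberg, with a threshold of 0.05. The steps were tested on simulated data. Replicates differed by more than counting noise (chi-square per degree of freedom 3.47 to 9.82), so none was counted as a duplicate. Motifs, shared words of 50 bases and neighboring starts were computed from reference sequence and annotation.

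The members and lists were chosen with earlier results of these data known. Genes were named by rule: in each subunit the 5 with the smallest p and the 3 highest and 3 lowest levels, the genes under the filter, Mrps30, Mrps36 and the Mrps18 paralogs, and 2 genes per other list. Members named for gene length, overlap or a neighboring start were chosen after their values were seen. Alternatives were a pseudocount of 0.1, other filters, median rescaling, quantile normalization, eBayes without trend, voom on derived reads, corrections for exon length and GC content, subunits by the known place of the protein, and each library left out.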

Additional observations from a re-analysis of the deposited data

How the results depend on the processing

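No member passed the adjusted test in any of the 15 alternative fits, where the smallest adjusted p ran from 0.143 (voom) to 0.44 (without β-gal replicate 1). The count of all genes changed, 50 as reported, was 7 without the filter and 174 with voom, and 6 to 19 with any 1 library left out (9 without β-gal replicate 1, 10 without 2, 15 without 3; 6 without Aloxe3 replicate 7, 14 without 8, 19 without 9). Members with an unadjusted p under 0.05, 7 as reported, numbered 4 to 11 with a library left out, the lowest without β-gal replicate 2 and the highest when Aloxe3 replicate 8 was left out. The median over members stayed within the spread of libraries (SD 0.034), at -0.033 to 0.0073, with its sign turned when β-gal replicate 2 (0.0046) or Aloxe3 replicate 9 (0.0073) was left out. The difference between subunits, 0.021, ran from 0.012 (Aloxe3 replicate 9 left out) to 0.032, the latter with subunits by the known place of the protein. The SD of log2 level was 1.76 with the principal transcript length, an alternative chosen after seeing the data. The cause of these shifts was not tested. No paired analysis was possible because the groups share no replicate numbers. Members had 1 to 3900 reads per library (median 909.5), so depth limits chiefly Mrpl53, Mrps23 and Mrpl23.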
